A study of Mus musculus with 24 samples.

Results

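Kinesins and cytoplasmic dynein are the motors that carry cargo along microtubules, and the genes that encode them, their light chains, dynactin and the BICD adaptors were examined for peaks listed in a comparison of STAU2-bound with input RNA of the embryonic mouse cortex. The rule took every protein-coding gene of the mouse annotation whose symbol starts with Kif and a digit, Klc, Dync, Dctn or Dynl, together with Kifap3, Bicd1 and Bicd2. It found 68 genes of 21951. One of them, Kif1bp, is a kinesin-binding protein and not a motor, and was kept because its symbol meets the rule.

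The study set RNA from STAU2 immunoprecipitates (STAU2 RIP) beside RNA of the input lysate of whole mouse embryonic cortex on 4 embryonic days, E11.5 and every second day up to E17.5. There were 3 STAU2 RIP and 3 input libraries on each day, 24 in all, and each biological replicate came from the cortices of a whole litter, pooled. Strain, sex and genotype are not given in the labels, and no genetic change or treatment is named for any group. The RIP used a monoclonal antibody to STAU2, and the sequenced comparison was with input and not with a control antibody.

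Most kinesins walk towards the plus ends of microtubules, which point away from the cell body in axons, while cytoplasmic dynein, with its cofactor dynactin and adaptors such as BICD2, walks towards the minus ends. Motors of both kinds move ribonucleoprotein granules in neurons, and another set of kinesins builds the mitotic spindle and completes cytokinesis in dividing progenitors. Staufen proteins bind double-stranded stretches of RNA and are components of such granules, so the transcripts listed here encode machinery of the kind that moves the granules.

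The deposited lists hold 6530, 5871, 10265 and 6341 peaks for the 4 days in order, with a median width of 81.0 to 83.0 bp. Each list pools the 3 RIP and 3 input libraries of its day, so no peak has a value per replicate, the spread between replicates is unknown and nothing below is tested. Read totals are not in the lists either, so depth is unknown, and a difference between days includes any difference in the depth or preparation of the libraries. The sources used here do not give the direction of the authors' test, so a listed peak is not read here as RNA enriched over input. The p-value, the signal and the other numbers per peak are the authors' own, and ranks were computed here by ordering all peaks of a day on the authors' p. A rank of 1 is the smallest p, and ranks hold within a day only. Of peaks over exactly 1 annotated gene, 95% to 97.4% lay over a gene on the strand of their list.

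Among the coding-sequence (CDS) peaks, these few are shown because they carry the points made below: the stretches that were listed on several days in Dynll2, Dync1h1 and Dctn1, and the best-ranked CDS peaks of E15.5 and E13.5. Capitals mark bases that a peak covered on every day that has an overlapping peak in that stretch. Sequences are 5′ to 3′ on the coding strand, from GENCODE transcripts on GRCm38, and the dynein intermediate chain and Kif4 peaks had no overlapping peak on another day.
Dynll2 E11.5, chr11:87983877-87983992, minus strand, 20 bases shared by 3 days: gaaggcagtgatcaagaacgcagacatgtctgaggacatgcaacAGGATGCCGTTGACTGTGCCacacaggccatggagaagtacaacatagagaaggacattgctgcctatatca
Dync1h1 E17.5, chr12:110666589-110666681, plus strand, 21 bases shared by 3 days: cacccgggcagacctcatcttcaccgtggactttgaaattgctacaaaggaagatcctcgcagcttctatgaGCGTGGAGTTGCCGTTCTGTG
Dctn1 E17.5, chr6:83192813-83192874, plus strand, 26 bases shared by 2 days: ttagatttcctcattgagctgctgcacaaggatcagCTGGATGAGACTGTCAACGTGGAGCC
Dync1i1 E15.5, chr6:5969408-5969459, plus strand: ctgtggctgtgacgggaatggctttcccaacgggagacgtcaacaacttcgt
Kif4 E13.5, chrX:100726147-100726238, plus strand: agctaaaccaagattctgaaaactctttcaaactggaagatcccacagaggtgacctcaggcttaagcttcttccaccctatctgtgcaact

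In 3' UTRs, at most 30 bases from the middle of the stretch covered on every named day are given, all in capitals because all are shared. They are shown because these stretches recur between days.
Dynll2, E11.5 to E17.5, all 4 days, chr11:87980687-87980706, minus strand: ACATTCTGTCTGCTCCCTGC
Dctn5, E13.5, E15.5 and E17.5, chr7:122148212-122148241, plus strand: GAGAGCCGCCAGTGACTACAAGAGCTGTCC
Dync1i2, E13.5, E15.5 and E17.5, chr2:71262986-71263015, plus strand: CTGAATTCTAACACTTGGGTGTATATTGTT
Klc1, E15.5 and E17.5, chr12:111806616-111806645, plus strand: GTGGCACTTCTCATGTGTTTAGTTCTGTGT
Kif1b, E13.5 and E15.5, chr4:149177522-149177551, minus strand: TTTTCCTGGCACATATTTCAAAGCATAGAC
Bicd2, E15.5 and E17.5, chr13:49386858-49386887, plus strand: AGAAAATGAGGCCAAGTGAGGAGAAGGCAT

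Of the 68 motor genes, 40 (58.8%) had a peak over an exon on at least 1 day, against 30.1% of all protein-coding genes. The exact 95% interval of that share ran from 46.2% to 70.6%; such intervals cover the counting of genes only. By day, 14 motor genes (20.6%) had a peak at E11.5, against 9.09% of all protein-coding genes. At E13.5 there were 23 (33.8%, against 11.8%), at E15.5 there were 30 (44.1%, against 19.9%), and at E17.5 there were 25 (36.8%, against 13.6%). The share of motor genes lay above that of all genes on each day. When every day was held to its strongest 5871 peaks, so that the lists were equally long, 14, 23, 23 and 23 motor genes had a peak from E11.5 to E17.5, against 8.36%, 11.8%, 13.9% and 12.9% of all protein-coding genes. The count of motor genes was then equal on the last 3 days, while the share of all genes was still highest at E15.5. At E11.5, 11 motor genes (16.2%, against 7.87%) were left where exons had to hold at least 50% of a peak.

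**Figure D1:**
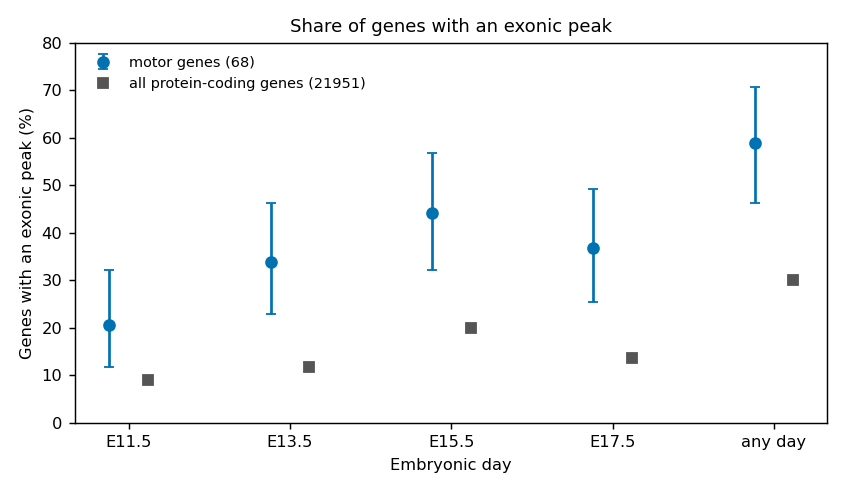
Percentage of genes with at least 1 exonic peak on each embryonic day and on any day, for the 68 motor genes (circles, with exact 95% binomial intervals) and for all 21951 protein-coding genes (squares). The motor genes sit at 20.6% to 44.1% by day, and all protein-coding genes at 9.09% to 19.9%.

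Longer exons offer more room for peaks. The median exonic length was 5059 bp over all 68 motor genes, against 3498 bp over all protein-coding genes, and the part of length in the higher share was not tested. Within the motor genes, the 40 with a peak had a median of 4898 bp and the 28 without one 5615 bp. That comparison lies within the motor genes and does not measure the part of length in their higher share. Among all protein-coding genes the order was the other way, with 4656 bp for genes with a peak and 3012 bp for genes without.

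Peaks recurred across days. Of the motor genes, 10 had a peak on exactly 1 day, 13 on 2 days, 12 on 3 days and 5 on all 4. The 17 genes on 3 or 4 days made up 25.0% of the motor genes, against 6.61% of all protein-coding genes. The 5 genes with a peak every day were the kinesin light chain gene Klc1, the mitotic kinesin gene Kif20b, the dynein light chain genes Dynll2 and Dynlt1f, and the dynactin gene Dctn5; 1.77% of all protein-coding genes had a peak on all 4 days. These counts lean on weaker peaks: with the stronger 50% of each day's peaks, 5 motor genes had a peak on 3 or 4 days, and Dynll2 was the one with a peak on all 4. With exons of transcripts tagged basic, 3 were left on all 4 days (Dynll2, Kif20b and Klc1). Where exons had to hold at least 50% of a peak, 3 were left (Dctn5, Dynll2 and Dynlt1f). The recurrence of all protein-coding genes in these settings is not given here.

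By subunit, every gene of the dynein-1 and dynactin classes was listed. All 5 cytoplasmic dynein-1 chain genes and all 6 dynactin genes had a peak on at least 1 day, as did 7 of 9 dynein small light chain genes and 1 of 2 BICD genes. That made 19 of the 24 dynein, dynactin and BICD genes, with 6, 13, 14 and 14 of them by day. Neither of the 2 dynein-2 genes, Dync2h1 and Dync2li1, which serve transport in cilia, had an exonic peak. Of 43 kinesin genes, 20 had a peak, with 8, 10, 15 and 10 by day. Over all protein-coding genes the share was 30.1% on any day, and 9.09%, 11.8%, 19.9% and 13.6% by day, with the longest list at E15.5. The difference between the 2 groups was not tested, and 4 of the 19 are near-identical Dynlt1 copies, described below.

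**Figure D2:**
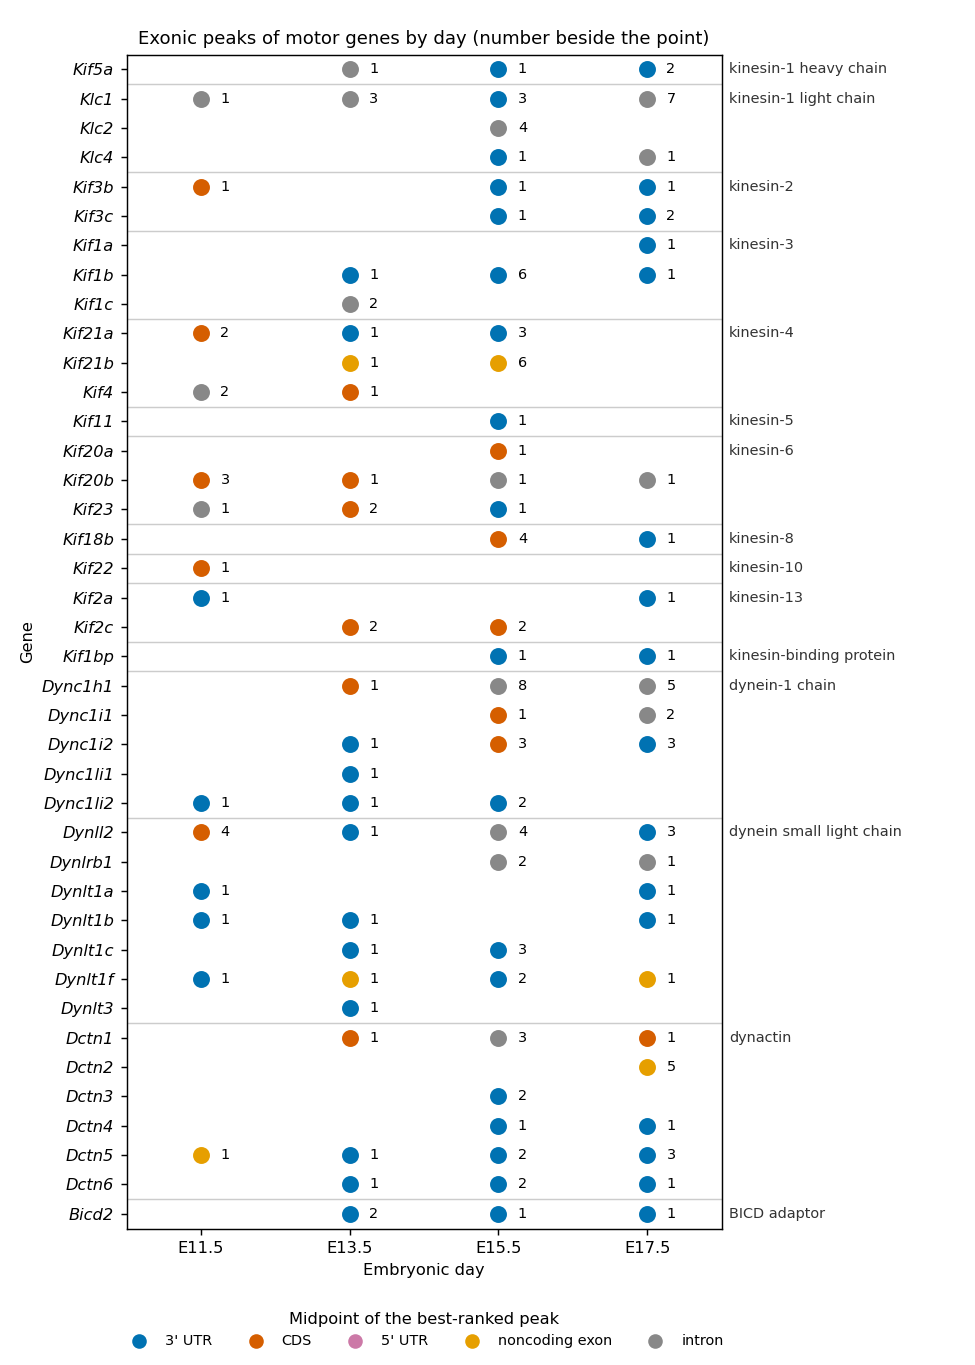
Each row is 1 of the 40 motor genes with an exonic peak, grouped by subunit class, and each column an embryonic day; a point means at least 1 peak, its colour the transcript part at the midpoint of the best-ranked peak, and the number beside it the count of peaks. Dynactin and dynein-1 genes fill most columns from E13.5 on, and 10 genes have a point on 1 day only.

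Kinesin-1 is the main plus-end transporter of axons, a pair of heavy chains joined to a pair of light chains that bind cargo. Among its heavy chains only Kif5a had an exonic peak, and Kif5b and Kif5c had none. Kif5a had a peak with its midpoint in an intron at E13.5 (rank 5705), a 3' UTR peak of 52 bp at E15.5 (rank 9913), and at E17.5 a 3' UTR peak of 177 bp (chr10:127225845-127226021, rank 736) and a CDS peak of 51 bp (rank 4036). The E15.5 and E17.5 peaks of its 3' UTR shared 39 bases, with midpoints 2447 and 2522 bases after the stop codon in a 3' UTR of 2759 bases. The light chains were more heavily marked: Klc1, Klc2 and Klc4 had peaks, and Klc3 had none.

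Klc1, the main neuronal light chain, had 14 exonic peaks, a number shared by Dync1h1 and reached by no other motor gene. Its best-ranked peak was the best of any motor gene at E15.5, 263 bp in the 3' UTR (chr12:111806395-111806657, rank 126). At E17.5, 2 shorter peaks lay in the same place (rank 1647 and rank 4927). A second group lay in the 3' UTR of a shorter isoform, at E13.5 (chr12:111794659-111794710, rank 2545) and at E17.5 (rank 5020), and those 2 peaks shared 50 bases; in the longest coding isoform that position is intronic. The other Klc1 peaks were mostly wide ones that ran across introns, from 889 to 9236 bp. Klc2 had 4 peaks, all at E15.5, of which a 390-bp peak over an intron of 355 bp ranked best (chr19:5109826-5110215, rank 256), followed by a 3' UTR peak (rank 772), a peak in a noncoding exon (rank 1030) and another in the 3' UTR (rank 3975). The Klc2 peak in a noncoding exon also held a whole annotated intron, of 80 bp. Klc4 had a 3' UTR peak at E15.5 (rank 2498) and an intron-spanning one at E17.5 (rank 1657).

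Kinesin-2 carries cargo in axons and cilia. Kif3b, a heavy chain of the kinesin-2 trimer, had 3 peaks at 3 places. The first was a CDS peak at E11.5 (rank 4892). The others were a 3' UTR peak 154 bases after the stop codon at E15.5 (chr2:153330271-153330348, rank 452) and one 2659 bases after it at E17.5 (chr2:153332772-153332857, rank 467), in a 3' UTR of 3235 bases. Its listed position thus differed on each day. Kif3c, a neuronal kinesin-2, had 1 peak at E15.5 and 2 at E17.5, all in the 3' UTR. Kif3a, Kifap3 and Kif17 had none.

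Kinesin-3 motors move synaptic vesicle precursors and mitochondria. Kif1b had 8 peaks, all in its 3' UTR of 4449 bases: 1 at E13.5 (rank 2341), 6 at E15.5 (ranks from 1129 to 9706) and 1 at E17.5 (rank 1895). The 6 peaks of E15.5 lay between 492 and 4098 bases after the stop codon, spread along nearly its whole length, and the E13.5 peak fell inside the one centred at 3214 bases. Kif1a had a single exonic peak, 53 bp in the 3' UTR at E17.5 (chr1:93015761-93015813, rank 217), the second-best rank of the motor genes on that day. Kif1c had 2 peaks at E13.5, both with the midpoint in an intron, and was the one motor gene with all its exonic peaks of that kind. Kif13a, Kif13b, Kif14, Kif16b and Kif28 had no exonic peak.

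Kinesin-4 includes Kif21a and Kif21b, which restrain microtubule growth in neurons, and Kif4, which acts on chromosomes and the central spindle. Kif21b had 7 peaks: 1 with its midpoint in a noncoding exon at E13.5 (rank 3397) and 6 at E15.5. The E13.5 peak held a whole annotated intron of 1867 bp. The best of the 6 had its midpoint in a noncoding exon (chr1:136171303-136172248, rank 401) and held 3 whole annotated introns. Of the others, 1 lay in the CDS (rank 7212) and 4 lay along the 3' UTR of 3907 bases. Those 4 were 66 to 3818 bases after the stop codon, with ranks from 505 to 8689. Kif21a had a CDS peak and an intron-spanning peak at E11.5 (rank 3101 and rank 3720), and 3' UTR peaks at E13.5 (rank 5686) and E15.5 (rank 2578) that shared 105 bases; 2 wide intron-spanning peaks were also listed at E15.5. Neither gene had a peak at E17.5. Kif4 had 2 peaks with the midpoint in an intron at E11.5 (best rank 3466), which touched exons by 3 and 9 bp. At E13.5 it had the CDS peak printed above, the best rank of any motor gene on that day (rank 589). Kif7 and Kif27 had none.

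The kinesin-5, 6, 8, 10, 12 and 13 families, which hold most mitotic kinesins, had a peak in 8 of 14 genes, with 4, 3, 6 and 3 of them by day. For all protein-coding genes the shares were 30.1% on any day and 9.09%, 11.8%, 19.9% and 13.6% by day. All 14 together are few genes, and the difference was not tested. All 3 kinesin-6 genes, which act at the central spindle in cytokinesis, were among the 8. Kif20b had a peak every day, but no 2 of them in the same place: 3 at E11.5 (ranks from 4694 to 5269), a CDS peak at E13.5 (chr19:34972896-34972987, rank 1364), and a peak with its midpoint in an intron at E15.5 (rank 8081) and at E17.5 (rank 4916). Kif23 had an intronic-midpoint peak at E11.5 (rank 5176), a CDS peak (chr9:61923914-61923995, rank 1803) and a 3' UTR peak (rank 2859) at E13.5, and a 3' UTR peak at E15.5 (rank 7336). The E11.5 peak of Kif23 had 7 of its 742 bp in exons, and Kif23 counts on that day only through that peak. Kif20a had 1 CDS peak at E15.5 (rank 2103).

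Kif18b, a kinesin-8 that controls astral microtubules, had 4 peaks at E15.5, of which a CDS peak (rank 1245) and a 3' UTR peak (rank 1907) ranked best. At E17.5 a 50-bp peak of its 3' UTR, sharing 35 bases with the E15.5 one, reached rank 392 (chr11:102906139-102906188), although its signal of 5.57 was the lowest of any motor gene peak on that day. Kif2a, a kinesin-13 that takes microtubule ends apart, had overlapping 3' UTR peaks at E11.5 (rank 2631) and E17.5 (rank 4313) with 48 bases in common. Kif2c had 2 peaks at E13.5 and 2 at E15.5, of which 3 lay in the CDS and 1 had its midpoint in an intron. Kif11 had a 3' UTR peak at E15.5 (rank 9499), and Kif22 a CDS peak at E11.5 (rank 3548). Kif12, Kif15, Kif18a, Kif19a, Kif24 and Kif2b had none, and neither had the kinesin-9 genes Kif6 and Kif9 or the kinesin-11 genes Kif26a and Kif26b. The kinesin-binding protein gene Kif1bp had a peak at E15.5 (rank 2857) and another at E17.5 (chr10:62559171-62559298, rank 576), both in the 3' UTR of a shorter isoform, where the longest coding isoform has an intron.

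Cytoplasmic dynein-1 is built on the heavy chain Dync1h1, which holds the motor domain. Dync1h1 had 14 peaks, of which 1 was listed at E13.5, 8 at E15.5 and the other 5 at E17.5. None of them had its midpoint in the 3' UTR. Near the end of its coding sequence, peaks of 3 days overlapped: 49 bp at E13.5 (chr12:110666661-110666709, rank 1594), 405 bp at E15.5 (chr12:110666312-110666716, rank 5668) and 93 bp at E17.5 (chr12:110666589-110666681, rank 1172). They had in common the 21 bases printed in capitals above. The other E15.5 peaks of the coding sequence were 48 to 75 bp wide and lay towards the gene's start, with ranks from 2203 to 9490. One intron of 2907 bp was covered from end to end by a 2959-bp peak at E17.5 (rank 1070), and at E15.5 the same stretch was listed as 2 peaks of 1848 and 1056 bp (rank 2082 and rank 1821).

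The intermediate and light intermediate chains tie dynein to dynactin and to cargo. Dync1i1, the neuronal intermediate chain, had at E15.5 the 52-bp CDS peak printed above (rank 323), and at E17.5 an intron-spanning peak (rank 2683) and a 3' UTR peak (rank 6029). Dync1i2 had 7 peaks, of which the 3' UTR peaks of E13.5 (rank 4493), E15.5 (rank 5963) and E17.5 (rank 2127) shared 49 bases. Its other peaks were 2 in the CDS at E15.5, 1 in the CDS at E17.5 and a further one in the 3' UTR at E17.5. Dync1li2 had 4 peaks, all in its 3' UTR of 2902 bases. Those of E11.5 (rank 3022) and E13.5 (rank 4396) shared 48 bases, with midpoints 1603 and 1567 bases after the stop codon, while the E15.5 peaks were elsewhere, and the one 586 bases after the stop codon ranked second among the motor genes of that day (chr8:104419948-104420045, rank 168). Dync1li1 had 1 peak, in the 3' UTR at E13.5 (rank 3518).

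Of the small light chains, which bind the intermediate chains and many other proteins, Dynll2 was the most often listed, with 12 peaks on 4 days. Its 3' UTR of 1908 bases held the one stretch of any motor gene that was covered on all 4 days. The 4 peaks there were 134 bp at E11.5 (rank 3900), 71 bp at E13.5 (rank 1337), 103 bp at E15.5 (rank 8722) and 109 bp at E17.5 (rank 3354), and their midpoints lay 734, 762, 749 and 692 bases after the stop codon. The 20 bases common to all 4 are printed above. A further stretch near the end of the 3' UTR was shared by E11.5 (54 bp, rank 5396) and E17.5 (110 bp, rank 3095), with 51 bases in common. In the CDS, the E11.5 peak (rank 753) was the best-ranked of any motor gene on that day, and the E17.5 peak of 49 bp (rank 4533) lay wholly inside it; a 2758-bp peak of E15.5 (rank 704) ran from the 3' UTR into the same stretch, across an intron that is 2636 bp in the isoform where it is longest. Its paralogue Dynll1 had no peak on any day.

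**Figure D3:**
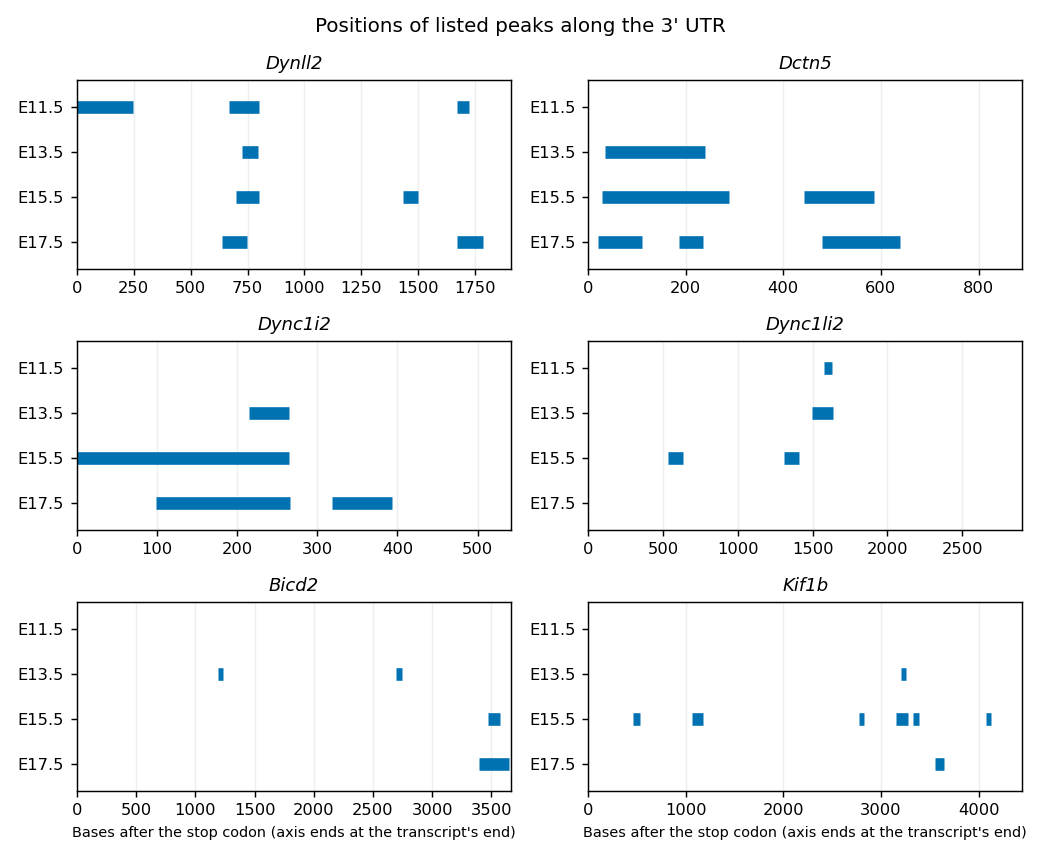
Listed 3' UTR peaks of 6 motor genes, by embryonic day (rows), drawn to scale against bases after the stop codon; each axis ends at the end of the transcript and starts at the stop codon, so the parts of 2 peaks that reach into the CDS are not drawn. Dynll2 has a bar on all 4 days, with midpoints from 692 to 762 bases, Dctn5 and Dync1i2 have overlapping bars on 3 days, and the 6 Kif1b bars of E15.5 are spread over its length.

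Dynlrb1 had a 5018-bp peak at E15.5 (rank 1150) and a 5000-bp peak at E17.5 (rank 3742), which both spanned the same intron of 4964 bp, beside a 3' UTR peak at E15.5. Dynlt3 had a 3' UTR peak at E13.5 (rank 2613). Dynlrb2 had none. The Dynlt1 genes are near-identical copies on chromosome 17, and how reads were shared between them is not given in the sources used here, so their assignment is uncertain. At E11.5 the 146-bp peaks of Dynlt1a (rank 852) and Dynlt1f (rank 4605) held an identical run of 91 bases, and the 100-bp peak of Dynlt1b (rank 1524) shared a run of 73 bases with that of Dynlt1a. Dynlt1b was also listed at E13.5 (rank 3980) and E17.5 (rank 5932), with 18 bases of its 3' UTR common to the 3 days. Dynlt1c had a peak at E13.5 (rank 5250) and 3 at E15.5 (best rank 2279), and its 238-bp E13.5 peak shared an identical run of 153 bases with a Dynlt1f peak of E15.5. Dynlt1a had a second peak at E17.5 (rank 2513). Of the Dynlt1f peaks, those of E13.5 and E17.5 and 1 of the 2 at E15.5 lay in noncoding exons.

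Dynactin links dynein to its cargo and keeps it on the microtubule. Its shoulder and arm are built on Dctn1, and Dctn1 had a CDS peak at E13.5 (rank 5360), 3 peaks with the midpoint in an intron at E15.5 (best rank 4331) and a CDS peak at E17.5 (rank 5902). Dctn2, the dynamitin gene, had 5 peaks and all were at E17.5: 1 in the 5' UTR (rank 5112), 1 in the CDS (rank 1520), 2 in noncoding exons (rank 926 and rank 4361) and 1 in the 3' UTR (rank 4278). The 2 peaks in noncoding exons each held at least 1 whole annotated intron. Together the 5 peaks ran from the start to the end of the gene, whereas no other day had any. Dctn3 had 2 peaks at E15.5 (best rank 2611), and Dctn4 had 3' UTR peaks at E15.5 (rank 9178) and E17.5 (rank 1738) at different places.

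Dctn5 and Dctn6, subunits of the pointed end of the dynactin filament, were the most regular of the complex. In the 3' UTR of Dctn5, 890 bases long, E13.5 had a 205-bp peak (rank 4742), E15.5 a 260-bp peak (chr7:122148184-122148443, rank 370) and E17.5 peaks of 91 bp (rank 3377) and 51 bp (rank 1073) in the same stretch. A second stretch further along was covered at E15.5 (rank 4075) and E17.5 (rank 1285) with 105 bases in common. Its E11.5 peak (rank 3263) lay elsewhere, in a noncoding exon amid intronic peaks described below. Dctn6 had overlapping peaks at E13.5 (105 bp, rank 3113), E15.5 (71 bp, rank 3328) and E17.5 (112 bp, rank 109), with 70 bases in common. The E17.5 one (chr8:34090724-34090835) was the best-ranked peak of any motor gene on that day. The position is 3' UTR in one isoform and CDS in the longest coding isoform.

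The adaptor gene Bicd2 had 4 peaks, all in its 3' UTR of 3667 bases: 2 at E13.5 (rank 4834 and rank 2355), and later 1 each at E15.5 (99 bp, rank 4889) and E17.5 (251 bp, rank 3186). The last 2 had midpoints 146 and 147 bases from the transcript's end, and the whole E15.5 peak lay inside that of E17.5. Bicd1, whose annotated exons sum to 27373 bp, had no peak.

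Between neighbouring days, 13 motor genes gained a peak from E11.5 to E13.5 (19.1%, against 7.88% of all protein-coding genes), and 4 lost theirs (5.88%, against 5.21%). Those gained were Bicd2, Dctn1, Dctn6, Dync1h1, Dync1i2, Dync1li1, Dynlt1c, Dynlt3, Kif1b, Kif1c, Kif21b, Kif2c and Kif5a. Those lost were Dynlt1a, Kif22, Kif2a and Kif3b. From E13.5 to E15.5, 12 gained one (17.6%, against 12.1%) and 5 lost one (7.35%, against 3.99%). The 12 gained were Dctn3, Dctn4, Dync1i1, Dynlrb1, Kif11, Kif18b, Kif1bp, Kif20a, Kif3b, Kif3c, Klc2 and Klc4. The 5 lost were Dync1li1, Dynlt1b, Dynlt3, Kif1c and Kif4. From E15.5 to E17.5, 5 gained one (7.35%, against 5.04%), namely Dctn2, Dynlt1a, Dynlt1b, Kif1a and Kif2a, and 10 lost one (14.7%, against 11.4%). The 10 lost were Dctn3, Dync1li2, Dynlt1c, Kif11, Kif20a, Kif21a, Kif21b, Kif23, Kif2c and Klc2. With equally long lists, 9 were lost from E13.5 to E15.5 and 9 gained from E15.5 to E17.5, so those 2 counts depended on the length of the lists. The gains and losses of all protein-coding genes with equally long lists are not given here.

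The 40 genes held 171 exonic peaks, with a median of 4 per gene (range 1 to 14), and none of these peaks touched an exon of a second gene. By midpoint, 88 lay in a 3' UTR (51.5%), 34 in a CDS (19.9%), 2 in a 5' UTR (1.17%), and 38 in an intron (22.2%) although the peak touched an exon. Over all protein-coding genes, with 19355 exonic peaks, the shares were 47.5% in 3' UTRs, 28.1% in CDS, 1.83% in 5' UTRs and 17.0% in introns. The 3' UTR share of the motor genes was 38.1%, 51.7%, 52.1% and 56.2% from E11.5 to E17.5, and that of all genes 36.3%, 47.1%, 50.9% and 50.3%. Of the 40 genes, 32 had a 3' UTR peak, and the other 8 were Dctn1, Dync1h1, Kif1c, Kif20a, Kif20b, Kif22, Kif2c and Kif4. Where exons had to hold at least 50% of a peak, which removes most intron-spanning peaks, the 3' UTR share was 66.7%. With the part read from the longest coding transcript only, it was 46.2%. The shares of all protein-coding genes in both settings are not given here.

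**Figure D4:**
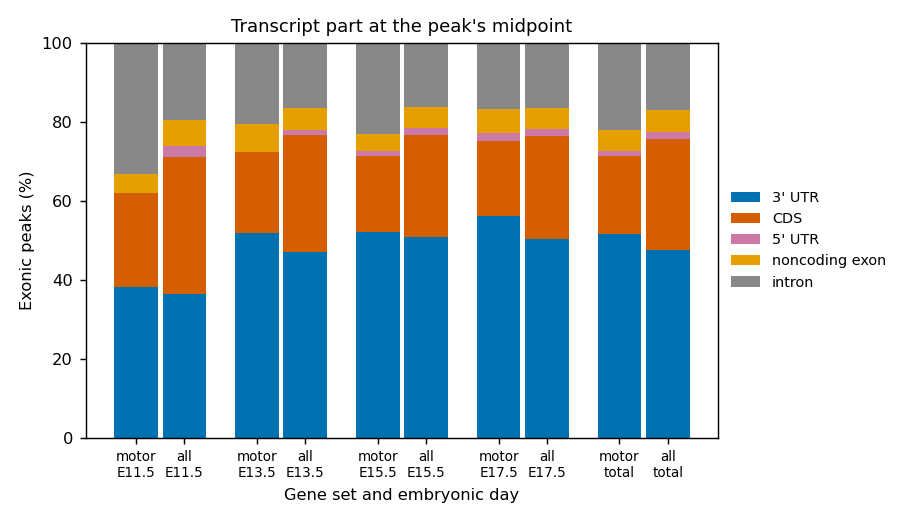
Percentage of exonic peaks by the transcript part at the peak's midpoint, for the motor genes (left bar of each pair) and all protein-coding genes (right bar), by embryonic day and over all days. The 3' UTR takes 38.1% of the motor gene peaks at E11.5 and 56.2% at E17.5, close to the 36.3% and 50.3% of all genes.

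Many of the wide peaks followed introns. Of the 171 peaks, 32 in 15 genes held at least 1 whole annotated intron, with a tolerance of 10 bp at each end (18.7%, against 13.5% of all exonic peaks). Klc1 had 6 of them, and Dync1h1 had 5. Peaks with an intronic midpoint had a median width of 816 bp and a median of 6.77% of their bases in exons, and 26 of the 38 held a whole intron. Peaks with an exonic midpoint had a median width of 78.0 bp. Whether reads joined across a splice site were counted over the intron between is not given in the sources used here.

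The same place was often listed on another day. Of the motor gene exonic peaks, 68 of 171 (39.8%, 95% interval 32.4% to 47.5%) shared at least 1 base with a peak of another day on the same strand, against 29.9% of all exonic peaks. Peaks of 1 gene are not independent, so the interval is narrower than the true one. The shared positions formed 27 stretches in 18 genes. One was covered on 4 days (Dynll2) and 7 on 3 days, in Dctn5, Dctn6, Dync1h1, Dync1i2, Dynll2, Dynlt1b and Klc1. Of these 7 genes, Klc1 is the only kinesin gene, and its 3-day stretch lay in an intron, with 1839 bases in common. Stretches of 2 days in an intron were found in Dync1h1, Dynlrb1 and Klc1, with 5000 bases in common in Dynlrb1. Intron-spanning peaks count in the share of 39.8%, and the share without them is not given here.

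By rank, motor gene peaks lay near the middle of the lists. Their median rank, as a percentage of the day's list, was 59.7%, 57.9%, 48.5% and 51.6% from E11.5 to E17.5, and that of all exonic peaks 51.4%, 49.5%, 49% and 49%. Of 21 motor gene peaks at E11.5 none was in the best 10% of the day, of 29 at E13.5 there was 1, and then 12 of 73 and 5 of 48. Over all days there were 18 of 171. The share of all exonic peaks in the best 10% is not given here, so these counts are not read as a shift between days. The 12 peaks of E15.5 were in Dctn5, Dync1i1, Dync1li2, Dynll2, Kif21b, Kif3b, Klc1 and Klc2. The median width was 106 bp, against 89.0 bp over all exonic peaks. The signal, whose scale is not given in the sources used here, had a median of 28.0, 33.1, 33.6 and 60.6 in motor gene peaks from E11.5 to E17.5, and of 37.2, 27.6, 26.5 and 29.0 in all exonic peaks. The 95% interval of the motor gene median held the value of all exonic peaks at E11.5 (23.2 to 146) and at E13.5 (14.5 to 59.3), as it did at E15.5 (21.6 to 45.7), but not at E17.5 (35.7 to 100.2). Peaks of 1 gene are not independent, so these intervals are narrower than the true ones, and no difference was tested. The 48 peaks of E17.5 came from 25 genes, with 7 of them in Klc1.

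**Figure D5:**
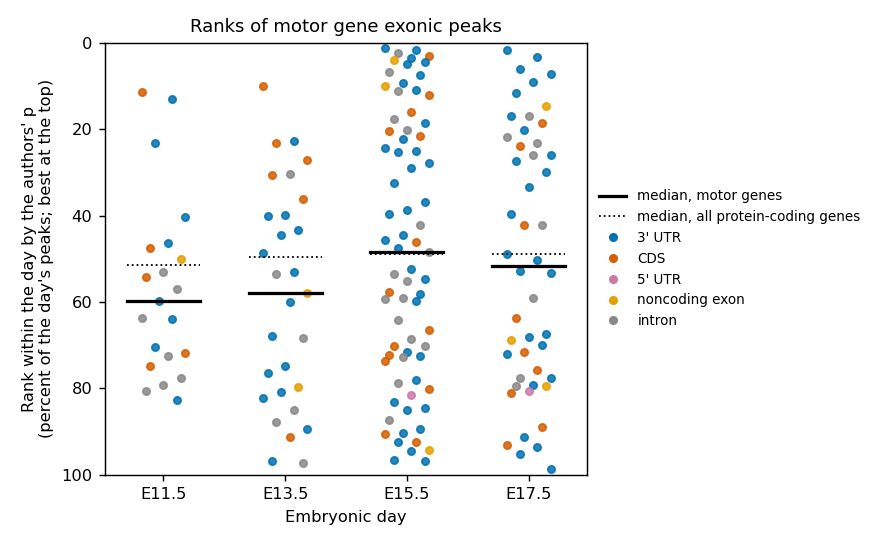
Rank of each motor gene exonic peak within its day by the authors' p, as a percentage of the day's peaks (y axis, best at the top; points are spread sideways for legibility), coloured by transcript part. Solid lines mark the motor gene medians (59.7%, 57.9%, 48.5% and 51.6%) and dotted lines those of all exonic peaks of protein-coding genes; points reach the best 2% at E15.5 and E17.5 and not at E11.5 or E13.5.

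Base composition and predicted folding were computed for the shorter peaks. The 121 that lay in 1 exon and were at most 300 bases long had a median GC content of 49.3%, against 50% over all such peaks, and a median predicted folding energy of -20.0 kcal/mol per 100 bases, against -20.1. By day, the motor gene median GC content was 51.1%, 44.2%, 49.8% and 50.8% from E11.5 to E17.5, and that of all such peaks 49.4%, 49.6%, 50% and 51.8%. On E13.5, with 22 motor gene peaks, the 95% interval of the median GC content, 37.3% to 49.3%, did not reach the value of all genes. The median folding energy on that day was -16.9 kcal/mol per 100 bases, against -19.4. Its 95% interval, -20.7 to -12.2, held the value of all genes. Peaks of 1 gene share sequence surroundings, and neither difference was tested. The printed Dynll2 CDS peak of E11.5 had a predicted minimum free energy of -27.5 kcal/mol over its 116 bases, with 51.7% of bases paired. That of Dync1i1 had -11.3 kcal/mol over 52 bases, with 53.8% paired.

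Some motor genes also had same-strand peaks that touched no exon. There were 74 such intronic peaks, 42, 2, 23 and 7 by day. On any day, 14 of the 68 motor genes had one, against 5.94% of all protein-coding genes. By gene, 9 of 68 had one at E11.5, against 2.36% of all protein-coding genes. On the later days 1, 5 and 1 of the 68 did, against 1.23%, 2.09% and 1.08%. They were concentrated in few genes. Kif20b had 13 at E11.5 (best rank 614) and 7 at E17.5, Dctn5 had 15 at E11.5 within 3790 bp (best rank 589), and Kif1a had 18 at E15.5 within 6525 bp, of which 17 were 50 bp wide and 14 carried the same p. Kif5b had 6 at E11.5. At E11.5, 7 of the 21 exonic peaks, in Dctn5, Kif20b, Kif23, Kif4 and Klc1, had an intronic peak of the same day within 1000 bp, a distance chosen after the values were seen. At E15.5 this held for 3 of 73, in Dync1h1 and Kif2c, at E17.5 for 1 of 48, in Kif20b, and at E13.5 for 0 of 29. The share of all exonic peaks with such a neighbour is not given here, so these counts are not read as a trait of motor genes. With Dync2h1, Kif13b and Kif14, Kif5b had intronic peaks and no exonic one, which left 24 motor genes with neither kind. Against the strand, 3 peaks lay over exons of motor genes, of Dctn3 and Dync1i1 at E17.5 and of Dynlt1f at E15.5. The share of all protein-coding genes with such a peak is not given here.

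Partners of the motors were listed too; their counts stand beside the shares of all protein-coding genes given above, 9.09%, 11.8%, 19.9% and 13.6% by day and 30.1% on any day, with the longest list at E15.5. Of 19 dynein regulators and cargo adaptors, 15 had a peak on at least 1 day, with 3, 3, 12 and 8 by day. Capzb, the capping protein at the end of the dynactin filament, had 3' UTR peaks on all 4 days (rank 94 at E11.5 and rank 374 at E13.5), the actin-related subunit Actr1b had 6 peaks at E17.5 (best rank 125), and the adaptor Hook2 reached rank 86 on that day. Pafah1b1, the dynein regulator LIS1, had a peak at E11.5 (rank 726), E15.5 and E17.5, and its partner Ndel1 at E13.5 alone (rank 261). Of 22 kinesin cargo adaptors, 17 had a peak (7, 4, 12 and 8 by day), with the lysosomal adaptor Arl8a at rank 21 at E11.5 and the scaffold Mapk8ip3 at rank 201 at E17.5.

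Of 16 proteins of RNA transport granules, 14 had a peak, with 7, 6, 11 and 8 by day, and Casc3 and Stau2 itself were among those with one every day. Of 20 microtubule-associated proteins, 19 had one, with 3, 8, 15 and 11 by day, among them Mapre1, which binds growing microtubule ends, at rank 25 at E15.5. Of the other motor families, 4 of 25 myosin motor genes had a peak, among them Myo19, Myo5a and Myo9b, and 2 of 20 axonemal dynein genes. Of 23 tubulin and gamma-tubulin complex genes, 13 had one, with 5, 9, 4 and 4 by day. The share of all protein-coding genes was 30.1% on any day and 9.09%, 11.8%, 19.9% and 13.6% by day, for these lists as for those above. These lists were drawn up with earlier results of the same data known, and no test compares them.

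Expression of each gene sets whether it can be listed, and per-gene levels were not analysed here. Among cell type markers, 4 of 9 progenitor genes had a peak on some day (1, 2, 4 and 1 by day), and 7 of 10 neuron genes (2, 5, 5 and 2). Of 12 vessel and meninges genes 9 had one, 8 of them at E13.5, and of 11 blood and microglia genes 1 had one. Over all protein-coding genes the share was 30.1% on any day, and 9.09%, 11.8%, 19.9% and 13.6% by day. These marker lists are short, and their counts are not read here as a measure of cell types. In whole cortex, a change in the share of dividing progenitors and neurons and a change of STAU2 binding within a cell cannot be told apart.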

How the data were processed

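STAU2 RIP and input RNA of whole embryonic cortex had been sequenced by the authors with 3 libraries each per day, made, per the labels' protocols, with ScriptSeq reagents; such libraries are stranded. The 8 deposited peak lists, 1 per day and strand, pool these libraries. Per the submitters' processing notes, TopHat2 2.0.9, TopHat, bedtools 2.17.0, Cufflinks 2.2.1 and mm10 were used, with no role stated; the sources used here do not give the peak caller or its test. Each peak has a deposited score, a deposited signal, a deposited p-value and a deposited q-value, with q at most 0.01; the columns are unnamed, and these units were read from the authors' values. Library depth is unknown.

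Peaks were assigned to genes of GENCODE vM21 (GRCm38, which mm10 names) by 1 bp or more of exon on the same strand, with Python 3.11.15. The transcript part was read at the peak's midpoint from transcripts of protein-coding type, in the order 3' UTR, CDS, 5' UTR, then exons of other transcripts (noncoding exon), otherwise intron. Peaks tied on p share a rank. Intervals are exact binomial at 95% (scipy 1.17.1) and cover counting error only. Sequences of at most 300 bases were folded with RNAfold 2.7.2; figures used matplotlib 3.10.9. The assignment code was run on 2000 simulated peaks of 50 bp placed inside UTRs or coding sequence, and 100% were assigned to the right gene. Their part was checked against the same midpoint rule that assigns it, so that check could not fail. Peaks that span introns or lie in noncoding exons were not simulated. By the rule for named genes, the 29 described most fully are the motor genes with a peak on 3 or 4 days, the 5 best-ranked of each day, those with 3 or more peaks on 1 day and those whose peaks overlap between days; some of their peaks are given by count or range. The others are given by name, day and part, several with their rank as well. The members and the gene lists were chosen with earlier results of these data known. Some genes of the lists are not reported here by name. No test between groups was made. Alternatives were a stricter rank, equal list lengths, a larger overlap, no peaks over 5000 bp, no peaks over 2 or more genes, other isoforms, another reading of the part, and the best peak per gene.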

Additional observations from a re-analysis of the deposited data

How the results depend on the processing

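Of 121 values over 26 results, 110 stayed within the stated margin of 1.5 times for a count or within the 95% interval for a share or median. Leaving out a replicate was not possible, and no paired analysis was possible because the lists hold no value per replicate. With the stronger 50% of peaks, 7 motor genes had an exonic peak at E11.5, in place of 14, and 10 at E13.5, in place of 23; the shares of all protein-coding genes were then 5.20% and 6.94%. In the same setting 5, in place of 17, had one on 3 or 4 days and 1, in place of 5, on all 4. With equally long lists, 9 motor genes, in place of 5, were lost from E13.5 to E15.5 and 9, in place of 5, gained from E15.5 to E17.5. For recurrence, gains and losses, the shares of all protein-coding genes in these settings are not given here. Where exons had to hold at least 50% of a peak, 3 motor genes had a peak on all 4 days, and 67.9% of the E15.5 peaks and 66.7% of all peaks lay in a 3' UTR, in place of 52.1% and 51.5%; that setting drops intron-spanning peaks by its construction. With the part read from the longest coding transcript only, 46.2% of all motor gene peaks lay in a 3' UTR. The 3' UTR shares of all protein-coding genes in both settings are not given here. With basic transcripts alone, 3 motor genes had a peak on all 4 days. With the best peak of each gene, the median rank at E15.5 was 23.3%, in place of 48.5%, since a gene with several peaks keeps its best. Leaving out peaks over 5000 bp or over 2 or more genes moved no count of motor genes. The missing depth and replicate values limit each comparison between days.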
